A study of Mus musculus with 16 samples.

Results

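The genes described here are the enzymes that make and use glutathione and that remove superoxide and peroxides, in gonadal white adipose tissue of fed and fasted mice. They were chosen by gene symbol: glutathione S-transferases, microsomal glutathione S-transferases, glutathione peroxidases, peroxiredoxins, superoxide dismutases, catalase, the enzymes of glutathione synthesis and reduction, thioredoxins and their reductases, quinone reductase and heme oxygenase. The rule itself uses symbols alone. The rule found 47 genes of the 22180 genes with a probe set of their own, and each of the 47 had 1 probe set. Gsta1, Gsta2, Gstm5, Gstz1 and Prdx1 were annotated only on probe sets shared with other symbols and were left out, and Prdx5 and Prdx6 were not analysed here.

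The study asked which transcripts in white fat change with a fast. Total RNA of the gonadal fat pad was hybridised to 16 Affymetrix whole-transcript arrays, 8 from fed and 8 from 16-hour fasted mice. All samples came from male C57BL/6 mice aged 3 to 4 months, with no genetic modification named, and tissue was collected in the morning. Fed mice ate freely. Whether every sample was taken from a mouse of its own is not said in the labels, and the p-values therefore reflect only how these 16 samples vary.

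Glutathione is a small thiol peptide that cells hold at high concentration, and its synthesis is limited by glutamate-cysteine ligase. Glutathione peroxidases and, through thioredoxin, peroxiredoxins reduce peroxides, while glutathione S-transferases couple glutathione to reactive compounds such as the aldehydes that form when lipids are oxidised. Superoxide dismutases turn superoxide into hydrogen peroxide, which catalase splits in peroxisomes. Many of these genes carry antioxidant response elements bound by the transcription factor Nrf2, and in white fat the enzymes are known from work on lipid peroxidation and protein carbonylation.

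Levels are deposited log2 values, and a difference of 1 is a doubling. A gene was called when its Benjamini-Hochberg adjusted p, over all 22180 genes, was under 0.05 in limma. Of the 47 genes, 10 were called higher in fasted fat, 11 were called lower and 26 were not called. Over all genes 19.2% were called, 8.49% higher and 10.7% lower, against 44.7% of the 47. The genes were also brighter than most: their median level was 7.44 against 4.18 over all genes, and 19.1% of them had a mean under 4, against 48.4% of all genes. Their median log2 difference was -0.051 against -0.0042 over all genes, and the median of its size was 0.249 against 0.121. In 6 of the 47 (Cat, Gpx1, Gstt2, Gsto1, Hmox1 and Sod2) the call came with groups that did not overlap, beside 6.47% of all genes. Of the 6, 5 were higher (3.02% of all genes) and 1 was lower (3.45%). Subtracting each array's median left 18 calls, 11 higher and 7 lower, so the share of higher calls was 61.1% in place of 47.6% (all genes: 54.7% in place of 44.3%). Both directions occurred within the glutathione peroxidases, the theta class, the omega and kappa classes, the microsomal transferases and the group of superoxide dismutases and catalase.

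**Figure D1:**
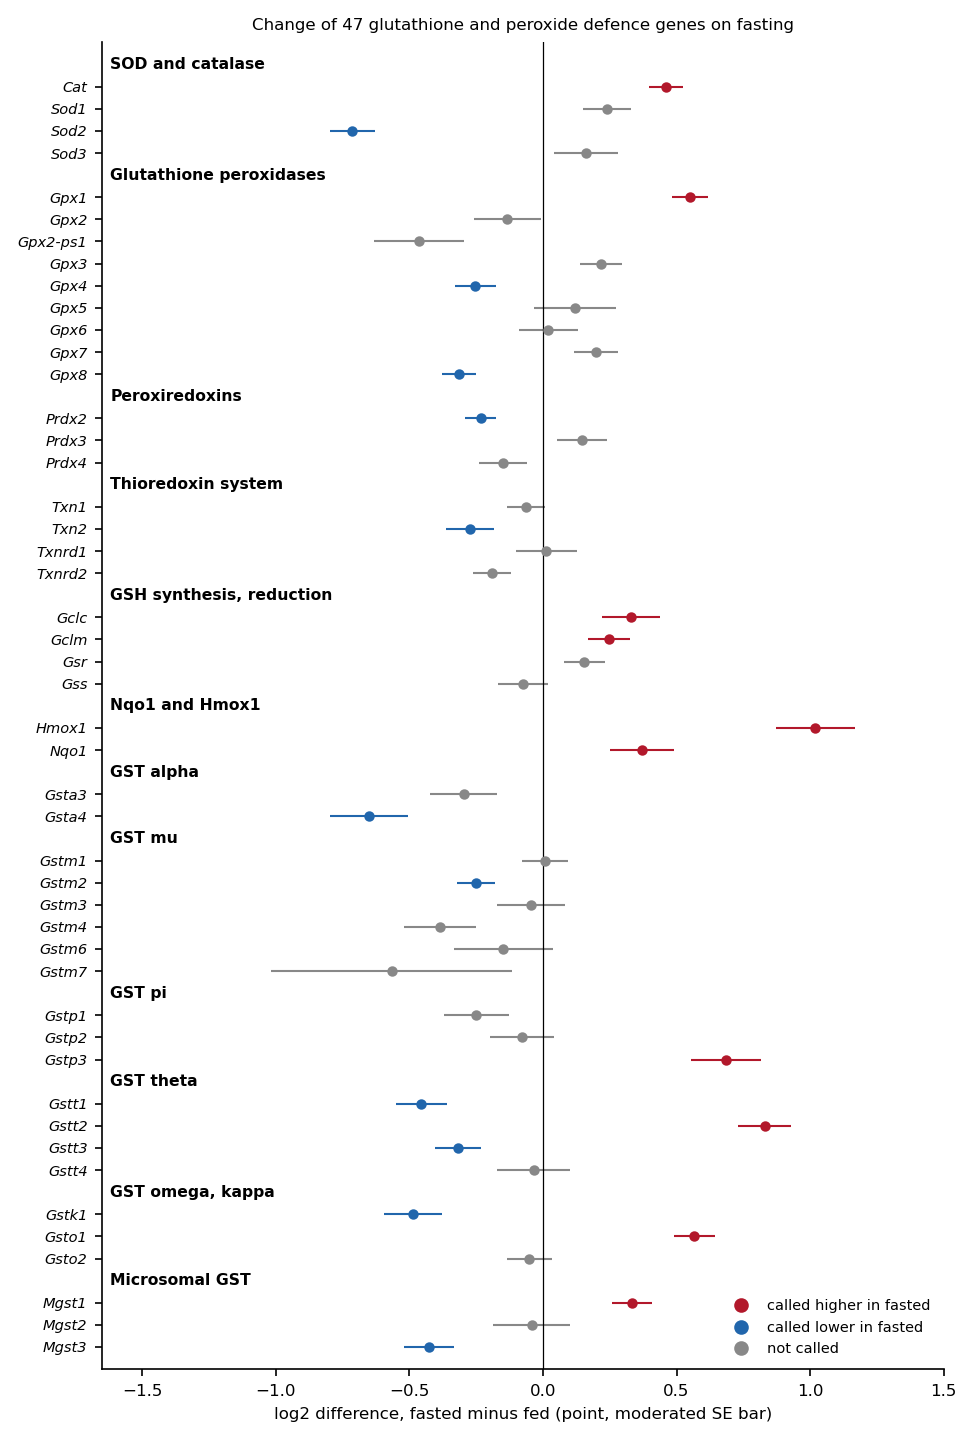
Log2 difference, fasted minus fed, of each of the 47 genes (points) with its moderated standard error (bars), grouped by enzyme class; red genes were called higher, blue genes lower and grey genes were not called. Hmox1 (1.02) lies farthest to the right and Sod2 (-0.71) farthest to the left, and the long bar of Gstm7 shows the spread of its arrays.

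Facts of the whole set of arrays bear on these values. Array medians lay between 3.60 and 3.69, correlations between arrays over all genes between 0.966 and 0.993, and no 2 arrays were identical. Adipocyte markers (9 measured of 10 listed) had array means of 10.9 to 11.2 in fed and 11.0 to 11.2 in fasted fat, a mean over genes that moved both ways (3 called higher, 2 lower), among them Pnpla2, which rose by 0.61 (SE 0.070, adjusted p = 4.25e-06), and Plin1, which fell by 0.84 (SE 0.083, adjusted p = 6.95e-07). Of 10 endothelial markers 2 were called higher, Pecam1 by 0.39 (SE 0.088, adjusted p = 0.00349) and Tek by 0.22 (SE 0.074, adjusted p = 0.0396), with a median difference of 0.14 over the 10. Hepatocyte markers, all 15 measured, had array means from 5.17 to 8.22 in fed and from 5.28 to 7.51 in fasted fat, with Alb at a mean of 10.5 and 10.6. With that mean as a covariate, the same 21 of the 47 genes were called. Markers of epididymal epithelium (16 measured of 18), which lies against this fat pad, had array means of 2.54 to 2.94. The highest were in fed replicate 2 (2.94) and fasted replicate 7 (2.85). One of these markers, Adam7, reached 6.16 in fed and 4.69 in fasted fat (medians 2.59 and 2.54). Red blood cell markers (3 of 9) had array means of 2.52 to 2.93. Fed replicate 2 and fasted replicate 7 stood apart in markers of ciliated epithelium, and fasted replicate 1 in markers of fibroblasts and progenitors (9.63, next 9.14). Fasted replicate 1 also had the highest macrophage mean (8.80), and without it 20 of the 21 calls were made, all but Txn2 (adjusted p = 0.05003). Fed replicate 3 had the highest hepatocyte mean, 8.22, close to fed replicates 2 (7.93) and 4 (7.83). A fit without fed replicates 2 and 3 and fasted replicate 7, arrays picked from earlier results of these data, called 18 of the 47 genes, 17 of them among the 21: the calls of Gclm, Gstm2, Gstt3 and Nqo1 were lost (adjusted p 0.0522, 0.0503, 0.106 and 0.172) and Sod1 was called (adjusted p = 0.0449). In bulk tissue, fewer cells of a type and less RNA per cell cannot be told apart.

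Of catalase and the 3 superoxide dismutases, Cat rose and Sod2 fell, and the other 2 were not called. Cat, the peroxisomal enzyme that splits hydrogen peroxide, lay between 11.71 and 12.06 in the fed arrays (median 11.81) and between 12.18 and 12.44 in the fasted arrays (median 12.29). Every fasted array was above every fed array. Cat rose from 11.84 ± 0.12 to 12.30 ± 0.10 (SD, n = 8 in each group), by 0.46 on the log2 scale (SE 0.065, adjusted p = 3.87e-05), a 1.38-fold rise. Sod2, the manganese superoxide dismutase of mitochondria, lay between 9.17 and 9.69 in the fed arrays (median 9.56) and between 8.55 and 8.9996 in the fasted arrays (median 8.81). Here all 8 fasted arrays were below all 8 fed arrays. Sod2 fell from 9.51 ± 0.17 to 8.80 ± 0.15, by 0.71 on the log2 scale (SE 0.085, adjusted p = 5.99e-06), a 1.64-fold fall. The copper and zinc enzyme of the cytosol, Sod1, lay between 10.67 and 11.14 in the fed arrays (median 10.82) and between 10.87 and 11.44 in the fasted arrays (median 11.07). Its groups overlapped, and its difference of 0.24 (SE 0.090, adjusted p = 0.0714) was not called. Without fed replicate 3 or fasted replicate 4 the adjusted p of Sod1 was 0.0321 or 0.0436. Sod3, the secreted form, differed by 0.16 (SE 0.120, adjusted p = 0.441). Catalase and Sod2 kept their calls under every setting run, with 1 array left out and with the normalization, the covariates or the test changed.

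Among the 9 glutathione peroxidases, 1 was called higher, 2 lower and 6 were not called. Gpx1, the broadly expressed selenium-containing peroxidase of cytosol and mitochondria, lay between 10.77 and 11.12 in the fed arrays (median 10.95) and between 11.30 and 11.70 in the fasted arrays (median 11.49). The groups were fully separated. Gpx1 rose from 10.94 ± 0.11 to 11.49 ± 0.12, by 0.55 on the log2 scale (SE 0.068, adjusted p = 9.61e-06), a 1.46-fold rise. Gpx8, a peroxidase of the endoplasmic reticulum without selenium, lay between 8.49 and 8.89 in the fed arrays (median 8.65) and between 8.27 and 8.49 in the fasted arrays (median 8.34). Only 1 of the 8 fasted arrays reached the fed range, at its lower edge. Gpx8 fell from 8.67 ± 0.12 to 8.35 ± 0.07, by 0.32 on the log2 scale (SE 0.063, adjusted p = 0.00122), a 1.24-fold fall. Gpx4, which reduces lipid hydroperoxides within membranes, lay between 5.61 and 5.97 in the fed arrays (median 5.75) and between 5.32 and 5.70 in the fasted arrays (median 5.52). In 5 of 8 fasted arrays it was below all fed arrays, and it fell by 0.25 on the log2 scale (SE 0.076, adjusted p = 0.0246), a 1.19-fold fall. Leaving out fed replicate 5 or 7 or fasted replicate 6 or 7 ended that call (adjusted p 0.0525 to 0.0547), as did subtracting array medians (adjusted p = 0.134).

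Gpx3, the secreted peroxidase of plasma, lay between 8.47 and 8.79 in the fed arrays (median 8.62) and between 8.55 and 9.002 in the fasted arrays (median 8.92). In 6 of 8 fasted arrays it was above every fed array, yet its difference of 0.22 (SE 0.078, adjusted p = 0.0615) was not called. Without fasted replicate 2 or 4 the adjusted p was 0.0197 or 0.0166, and with array medians subtracted it was 0.0422. Gpx7, like Gpx8 a peroxidase of the endoplasmic reticulum, differed by 0.20 (SE 0.082, adjusted p = 0.112), so the 2 related enzymes had differences of opposite sign of which that of Gpx8 was called. Without fasted replicate 3 the adjusted p of Gpx7 was 0.0461. The remaining 4, Gpx2, its transcribed pseudogene Gpx2-ps1, Gpx5 and Gpx6, had mean levels under 4, close to the low end of the arrays. Gpx2 differed by -0.13 (SE 0.125, adjusted p = 0.565), Gpx5 by 0.12 (SE 0.154, adjusted p = 0.699) and Gpx6 by 0.021 (SE 0.109, adjusted p = 0.94). Gpx5, a product of the epididymis, lay between 1.92 and 3.16 in all 16 arrays. Gpx2-ps1 differed by -0.46 (SE 0.170, adjusted p = 0.0656) and was past the threshold without fed replicate 4 or 5 (adjusted p 0.0196 and 0.0148).

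Peroxiredoxins reduce peroxides through thioredoxin, and 3 of them had a probe set of their own. Prdx2, a cytosolic form, lay between 7.69 and 7.99 in the fed arrays (median 7.89) and between 7.49 and 7.77 in the fasted arrays (median 7.65). In 6 fasted arrays it was below all fed arrays. Prdx2 fell from 7.88 ± 0.08 to 7.64 ± 0.09, by 0.23 on the log2 scale (SE 0.058, adjusted p = 0.00731), a 1.17-fold fall. With array medians subtracted its adjusted p was 0.0827. Prdx3, the mitochondrial form, differed by 0.15 (SE 0.094, adjusted p = 0.351), and Prdx4, the form of the endoplasmic reticulum, by -0.15 (SE 0.090, adjusted p = 0.301). Of the thioredoxin system, Txn2, the mitochondrial thioredoxin, lay between 6.27 and 6.91 in the fed arrays (median 6.71) and between 6.23 and 6.66 in the fasted arrays (median 6.38). The ranges overlapped widely, with 2 fasted arrays below all fed arrays, and Txn2 fell by 0.27 on the log2 scale (SE 0.090, adjusted p = 0.0397), a 1.21-fold fall. The Txn2 call was lost without any 1 of 12 arrays (fed replicates 1, 3, 4, 5, 7 and 8 and fasted replicates 1, 2, 3, 4, 6 and 7), with adjusted p up to 0.0833. With array medians subtracted it was 0.171. Cytosolic Txn1 differed by -0.063 (SE 0.072, adjusted p = 0.652). Of the reductases, which reload thioredoxin with electrons from NADPH, cytosolic Txnrd1 differed by 0.013 (SE 0.114, adjusted p = 0.965) and mitochondrial Txnrd2 by -0.19 (SE 0.071, adjusted p = 0.0671). Without fed replicate 7 the adjusted p of Txnrd2 was 0.0366.

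**Figure D2:**
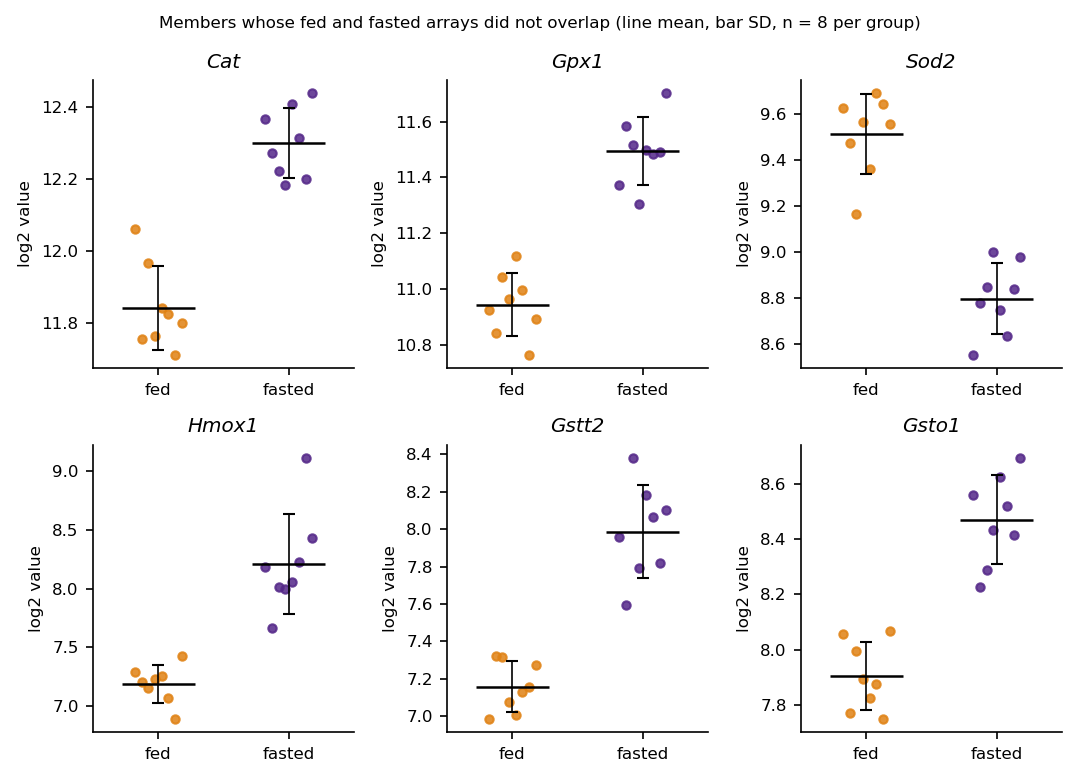
Log2 value of the 6 genes whose fed (orange) and fasted (purple) arrays did not overlap; each point is 1 array, the line is the group mean and the bar the SD (n = 8 per group). Cat, Gpx1, Hmox1, Gstt2 and Gsto1 were higher in every fasted array and Sod2 was lower, and fasted replicate 7 stands above the other Hmox1 values at 9.11.

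Both subunits of glutamate-cysteine ligase were called higher, by small amounts. Gclc, the catalytic subunit, lay between 7.01 and 7.54 in the fed arrays (median 7.18) and between 7.05 and 7.83 in the fasted arrays (median 7.51). The groups overlapped, with 4 fasted arrays above all fed arrays. Gclc rose from 7.19 ± 0.18 to 7.52 ± 0.26, by 0.33 on the log2 scale (SE 0.108, adjusted p = 0.0375), a 1.26-fold rise. Gclm, the modifier subunit, lay between 7.44 and 7.84 in the fed arrays (median 7.55) and between 7.65 and 8.07 in the fasted arrays (median 7.79). In 3 fasted arrays it was above all fed arrays. Gclm rose from 7.59 ± 0.16 to 7.84 ± 0.14, by 0.25 on the log2 scale (SE 0.079, adjusted p = 0.0315), a 1.19-fold rise. Neither gene was called in an exact rank sum test (adjusted p 0.0541 for Gclc and 0.0912 for Gclm). With the replicate block in limma neither was called (adjusted p 0.0917 and 0.0746). Neither call held without every single array. Dropping any 1 of fed replicates 1, 5, 6, 7 and 8 or of fasted replicates 3, 5, 6, 7 and 8 ended the Gclc call (adjusted p 0.0504 to 0.078). For Gclm the same held for fed replicates 3, 4, 5, 7 and 8 and for fasted replicates 2, 7 and 8 (adjusted p 0.0526 to 0.0662). Glutathione synthetase, Gss, which completes the peptide, differed by -0.076 (SE 0.093, adjusted p = 0.682). Glutathione reductase, Gsr, which restores oxidised glutathione with NADPH, differed by 0.16 (SE 0.078, adjusted p = 0.199).

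Hmox1 and Nqo1, classical Nrf2 targets, were both called higher. Hmox1, which breaks heme down to biliverdin, iron and carbon monoxide, lay between 6.89 and 7.43 in the fed arrays (median 7.22) and between 7.67 and 9.11 in the fasted arrays (median 8.12). No fasted array fell into the fed range. Hmox1 rose from 7.19 ± 0.16 to 8.21 ± 0.43, by 1.02 on the log2 scale (SE 0.148, adjusted p = 5.40e-05), a 2.03-fold rise, the greatest difference among the 47 genes. Fasted replicate 7 was highest and fasted replicate 2 lowest of the fasted arrays, at 9.11 and 7.67. Without fasted replicate 7 the difference was 0.89 (adjusted p = 6.54e-06). Macrophages also make Hmox1, and of 12 macrophage markers 3 rose and 1 fell: Cd68 by 0.88 (SE 0.099, adjusted p = 2.82e-06), Cd163 by 0.73 (SE 0.111, adjusted p = 8.44e-05) and C1qb by 0.30 (SE 0.091, adjusted p = 0.0234) rose, and Mrc1 fell by 0.23 (SE 0.076, adjusted p = 0.0351). Array means of the 12 markers ran from 8.26 to 8.53 in fed and from 8.22 to 8.80 in fasted fat. With that mean as a covariate the Hmox1 difference was 0.93 (SE 0.157, adjusted p = 3.83e-04). The mean joins markers that moved both ways, and a macrophage source of the rise was not tested. Within the 8 fasted arrays the correlation of Hmox1 with the macrophage mean was r = 0.419 (exact permutation p = 0.298, adjusted over 6 such relations 0.357) and rho = 0.571 (exact permutation p = 0.151, adjusted 0.453), with r = 0.438 after leaving out fasted replicates 1 and 2. Within the 8 fed arrays it was r = -0.0637 (exact permutation p = 0.876, adjusted 0.876) and rho = 0.0476 (exact permutation p = 0.935, adjusted 0.935), with r = 0.294 after leaving out fed replicates 3 and 6.

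Nqo1, which reduces quinones, lay between 4.77 and 5.39 in the fed arrays (median 4.94) and between 4.81 and 5.68 in the fasted arrays (median 5.43). Its fasted arrays overlapped the fed range, with 5 of 8 above it. Nqo1 rose from 4.97 ± 0.22 to 5.34 ± 0.29, by 0.37 on the log2 scale (SE 0.120, adjusted p = 0.0359), a 1.29-fold rise. The call was lost without any 1 of 11 arrays (fed replicates 1, 2, 3, 4, 7 and 8 and fasted replicates 3, 4, 5, 7 and 8), with adjusted p from 0.0501 to 0.0753. Nqo1 was also not called in an exact rank sum test (adjusted p = 0.0541) or with the replicate block in limma (adjusted p = 0.051). Fibroblast and progenitor markers (9 measured of 10, 2 of them called lower) had array means of 9.17 to 9.48 in fed and 8.91 to 9.63 in fasted fat. With their mean as a covariate Gclc, Gclm and Nqo1 were not called (adjusted p 0.264, 0.14 and 0.183), and with the macrophage mean Nqo1 was not (adjusted p = 0.0549). Fasted replicate 1, which had the highest fibroblast mean (9.63), was also the lowest fasted array in Gclc (7.05), Gclm (7.65) and Nqo1 (4.81). Without that array all 3 genes were called. Whether cell content accounts for their differences was not tested.

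Of 18 glutathione S-transferases of the alpha, mu, pi, theta, omega and kappa classes, 3 were called higher, 5 lower and 10 were not called. The theta class held calls in both directions. Gstt2 lay between 6.98 and 7.32 in the fed arrays (median 7.14) and between 7.59 and 8.38 in the fasted arrays (median 8.01). All 8 fasted arrays were above all 8 fed arrays. Gstt2 rose from 7.16 ± 0.13 to 7.99 ± 0.25, by 0.83 on the log2 scale (SE 0.099, adjusted p = 6.01e-06), a 1.78-fold rise. Gstt1 lay between 8.20 and 8.78 in the fed arrays (median 8.42) and between 7.63 and 8.24 in the fasted arrays (median 8.01). Of its fasted arrays, 7 were below every fed array. Gstt1 fell from 8.44 ± 0.19 to 7.98 ± 0.20, by 0.46 on the log2 scale (SE 0.096, adjusted p = 0.00182), a 1.37-fold fall. Gstt3 lay between 5.89 and 6.40 in the fed arrays (median 6.06) and between 5.57 and 5.96 in the fasted arrays (median 5.83). Again 7 fasted arrays were below every fed array. Gstt3 fell by 0.32 on the log2 scale (SE 0.087, adjusted p = 0.0132), a 1.25-fold fall, and this call was lost without fed replicates 2 and 3 and fasted replicate 7 together (adjusted p = 0.106). Gstt4 had a mean under 4 and differed by -0.035 (SE 0.137, adjusted p = 0.915). In the RefSeq order of assembly GRCm38.p6 these 4 genes are direct neighbours on chromosome 10 (Gstt3, Gstt1, Gstt4, Gstt2), with Gstt4 between the genes that fell and the gene that rose.

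In the alpha class, Gsta4 is known for detoxifying hydroxynonenal, an aldehyde of lipid peroxidation. Gsta4 lay between 7.64 and 8.13 in the fed arrays (median 7.85) and between 6.46 and 7.71 in the fasted arrays (median 7.28). The fasted arrays ran from within the fed range to far below it, with 7 under all fed arrays. Gsta4 fell from 7.86 ± 0.17 to 7.21 ± 0.41, by 0.65 on the log2 scale (SE 0.145, adjusted p = 0.00296), a 1.57-fold fall. Gsta3 lay between 7.72 and 8.39 in the fed arrays (median 8.12) and between 7.41 and 8.34 in the fasted arrays (median 7.65). Its groups overlapped and its difference of -0.30 (SE 0.125, adjusted p = 0.117) was not called, although without fasted replicate 8 the adjusted p was 0.0221. Gstk1, the kappa transferase of mitochondria and peroxisomes, lay between 9.11 and 9.63 in the fed arrays (median 9.52) and between 8.42 and 9.25 in the fasted arrays (median 9.004). In 5 fasted arrays it was below all fed arrays. Gstk1 fell from 9.45 ± 0.16 to 8.96 ± 0.27, by 0.49 on the log2 scale (SE 0.108, adjusted p = 0.00287), a 1.40-fold fall. Gsto1, an omega transferase that also reduces dehydroascorbate and mixed disulfides, lay between 7.75 and 8.07 in the fed arrays (median 7.88) and between 8.23 and 8.70 in the fasted arrays (median 8.48). Its groups did not overlap. Gsto1 rose from 7.90 ± 0.12 to 8.47 ± 0.16, by 0.57 on the log2 scale (SE 0.077, adjusted p = 2.78e-05), a 1.48-fold rise. The neighbouring Gsto2 had a mean under 4 and differed by -0.051 (SE 0.083, adjusted p = 0.77).

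**Figure D3:**
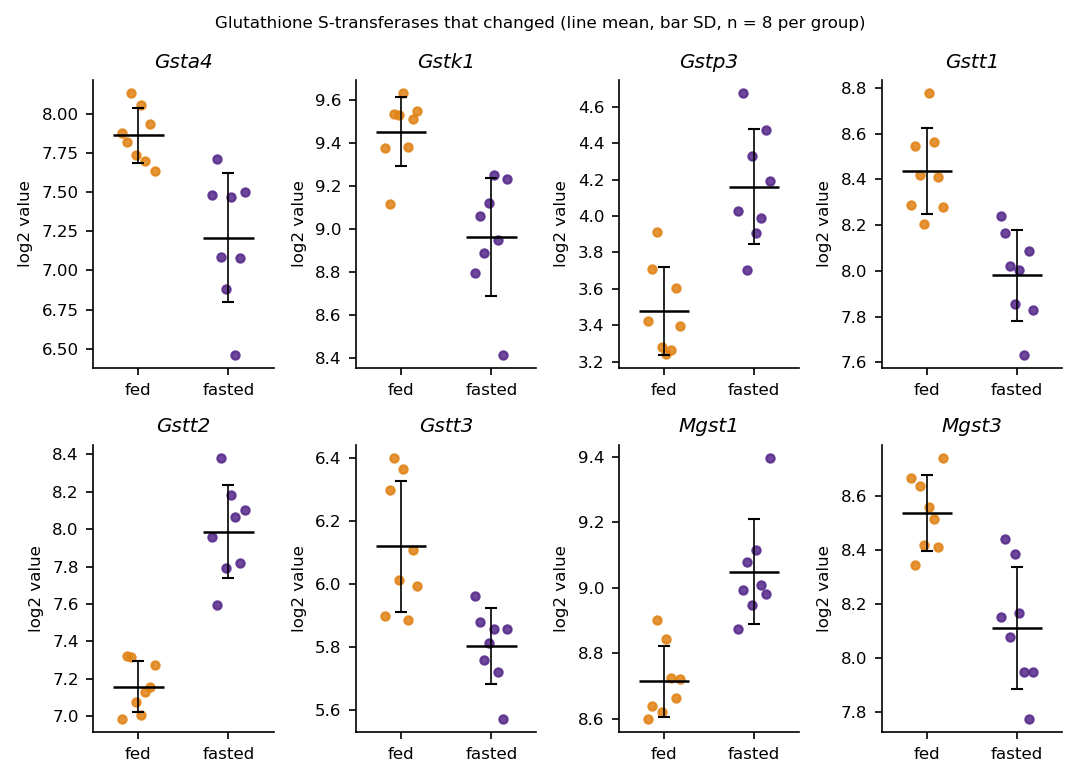
Log2 value of 8 of the glutathione S-transferases that were called, 1 point per array, with the group mean (line) and SD (bar, n = 8 per group). Gsto1 and Gstm2 were also called and are not drawn here. Gstt2, Gstp3 and Mgst1 were higher in fasted fat and the other 5 lower, and the fasted arrays of Gsta4 spread from 6.46 to 7.71.

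The 3 pi-class genes are neighbours on chromosome 19. Gstp1, the main pi transferase of most tissues, lay between 9.44 and 10.39 in the fed arrays (median 10.08) and between 9.41 and 10.08 in the fasted arrays (median 9.72). Its difference of -0.25 (SE 0.122, adjusted p = 0.19) was not called, and without fed replicate 6 the adjusted p was 0.0425. Gstp2 differed by -0.078 (SE 0.120, adjusted p = 0.754). Gstp3, a dim gene, lay between 3.24 and 3.91 in the fed arrays (median 3.41) and between 3.71 and 4.68 in the fasted arrays (median 4.11). In 6 fasted arrays it was above all fed arrays. Gstp3 rose from 3.48 ± 0.24 to 4.16 ± 0.32, by 0.68 on the log2 scale (SE 0.132, adjusted p = 8.68e-04), a 1.61-fold rise, and it was the only 1 called among the 9 of the 47 genes with a mean under 4. Of the 3 membrane-bound transferases 1 was called higher and 1 lower. Mgst1, which has transferase and peroxidase activity in the endoplasmic reticulum and outer mitochondrial membrane, lay between 8.60 and 8.90 in the fed arrays (median 8.69) and between 8.87 and 9.40 in the fasted arrays (median 8.999). All but 1 fasted array exceeded all fed arrays. Mgst1 rose from 8.71 ± 0.11 to 9.05 ± 0.16, by 0.33 on the log2 scale (SE 0.075, adjusted p = 0.00296), a 1.26-fold rise. Mgst3 lay between 8.35 and 8.74 in the fed arrays (median 8.54) and between 7.77 and 8.44 in the fasted arrays (median 8.12). In 6 fasted arrays it was below all fed arrays. Mgst3 fell from 8.54 ± 0.14 to 8.11 ± 0.23, by 0.43 on the log2 scale (SE 0.094, adjusted p = 0.00273), a 1.34-fold fall. Mgst2, which can make leukotriene conjugates, differed by -0.043 (SE 0.143, adjusted p = 0.899). Probe sets of closely related transferases (mu, pi, alpha and theta classes) may take up each other's transcripts, and their specificity was not checked.

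Of 6 mu-class genes 1 was called, and it fell. Gstm2 lay between 7.75 and 8.08 in the fed arrays (median 7.88) and between 7.45 and 7.85 in the fasted arrays (median 7.66). In 7 fasted arrays it was below all fed arrays, and Gstm2 fell by 0.25 on the log2 scale (SE 0.072, adjusted p = 0.0182), a 1.19-fold fall. With array medians subtracted its adjusted p was 0.0821, and with the fibroblast marker mean as a covariate 0.0925. Gstm1, its neighbour on chromosome 3, differed by 0.008 (SE 0.085, adjusted p = 0.972). Gstm4 lay between 4.85 and 5.77 in the fed arrays (median 5.24) and between 4.45 and 5.31 in the fasted arrays (median 4.92). Its difference of -0.38 (SE 0.136, adjusted p = 0.0553) missed the threshold, and without fed replicate 3, fed replicate 5 or fasted replicate 4 the adjusted p was 0.0337, 0.0302 or 0.0211. Gstm3 and Gstm6 had means under 4 and differed by -0.045 (SE 0.126, adjusted p = 0.875) and -0.15 (SE 0.185, adjusted p = 0.685).

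Gstm7 varied more between arrays of a group than any other of the 47 genes, over 3.11 log2 units in fed and 2.83 in fasted fat. It lay between 4.37 and 7.48 in the fed arrays (median 4.56) and between 3.72 and 6.55 in the fasted arrays (median 4.10). Fed replicate 2 (7.48) and fed replicate 6 (5.39) were the highest fed arrays, and fasted replicate 7 (6.55) and fasted replicate 4 (5.18) the highest fasted arrays. Of 15 markers of ciliated epithelium 12 were measured, with a median difference of -0.055. None was called higher in fasted fat and 2, Tekt2 and Tppp3, were called lower. The fed arrays of these 2 spanned only 0.61 and 0.53 log2 units, while those of Cfap44 spanned 4.66, the most of the 12. The same 4 arrays had the highest mean of these 12 markers, at 5.98, 4.13, 5.31 and 3.98, against 3.39 to 3.51 in the other fed and 3.30 to 3.46 in the other fasted arrays. Over the 8 fed arrays Gstm7 followed that mean with r = 0.988 (exact permutation p = 0.0101, adjusted over 6 relations 0.0304) but rho = 0.452 (exact permutation p = 0.268, adjusted 0.535). Leaving out fed replicates 2 and 6 gave r = -0.131, so the relation rests on those arrays. Over the 8 fasted arrays r was 0.970 (exact permutation p = 0.00193, adjusted 0.0116) and rho 0.810 (exact permutation p = 0.0218, adjusted 0.131), with r = 0.647 after leaving out fasted replicates 4 and 7.

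Between the groups, the Gstm7 difference of -0.57 (SE 0.450, adjusted p = 0.478) was not called. Without fed replicate 2 it was -0.21 (adjusted p = 0.765) and without fasted replicate 7 it was -0.87 (adjusted p = 0.145). With the ciliated marker mean as a covariate it was -0.39 (SE 0.110, adjusted p = 0.0164). Gstm6, which lies next to Gstm7 on chromosome 3, was also highest in fed replicate 2 (4.54) and fasted replicate 7 (4.07). Its correlation with the ciliated mean over the 8 fed arrays was r = 0.894 (exact permutation p = 0.0348, adjusted 0.0696) and rho = 0.214 (p = 0.619, adjusted 0.929). Over the 8 fasted arrays r was 0.804 (p = 0.0592, adjusted 0.0887) and rho 0.119 (p = 0.793, adjusted 0.935). Leaving out fed replicates 2 and 6 gave r = -0.648, and leaving out fasted replicates 4 and 7 gave r = -0.0645.

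**Figure D4:**
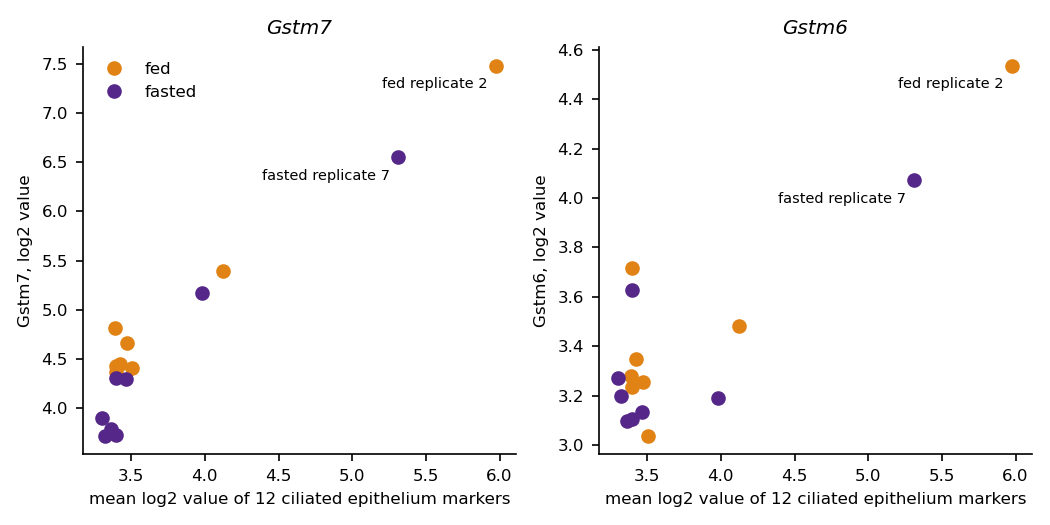
Log2 value of Gstm7 (left) and Gstm6 (right) against the mean log2 value of 12 ciliated epithelium markers, 1 point per array (8 fed in orange, 8 fasted in purple). Fed replicate 2 and fasted replicate 7 lie at the upper right of both plots, and most other arrays lie together at a marker mean near the low end.

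Promoter sequence was set beside the calls for 40 of the 47 genes, those with an entry in the RefSeq promoter table of assembly GRCm38.p6. Gclc, Gpx2-ps1, Gsr, Gsta4, Gstt2, Hmox1 and Sod3 had none. The first 250 bases of every promoter entry of a gene were searched on both strands. The letters sought were TGACNNNGC, the core of the antioxidant response element, CCAAT, the box bound by NF-Y, and GTAAACA, a forkhead site. A gene counted if any of its entries held the letters. The searched bases can run past the start of a gene, and only printed windows were cut there, as in Gclm. TGACNNNGC occurred in 6 of 40 (15.0%, against 11.5% of 27025 genes): Gclm and Mgst1, both called higher, and Gsta3, Gstm7, Sod1 and Txnrd1, which were not called. CCAAT occurred in 23 of 40 (57.5%, against 37.5% of genes), of which 2 were called higher, 6 lower and 15 not. Among all 40 genes, 7 were called higher and 10 lower, and the rest were not called. GTAAACA occurred in 0 of 40, against 3.54% of genes. Windows of 5 genes are printed 5′ to 3′ on the strand of the gene, with TGACNNNGC and CCAAT matches of either strand in capitals. Gclm and Mgst1 show the 2 antioxidant cores among called genes, Cat and Sod2 carry CCAAT but moved in opposite directions, and Gpx1 rose with neither. They lie at chr3:122245307-122245486 on the plus strand (180 bases), chr6:138140277-138140526 on the plus strand, chr2:103485154-103485403 on the minus strand, chr17:13007589-13007838 on the plus strand and chr9:108338830-108339079 on the plus strand, each ending just before the start of the gene.
Gclm: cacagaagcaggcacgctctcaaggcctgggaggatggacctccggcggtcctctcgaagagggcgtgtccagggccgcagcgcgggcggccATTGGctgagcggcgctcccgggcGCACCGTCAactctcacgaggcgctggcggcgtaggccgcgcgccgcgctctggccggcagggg
Mgst1: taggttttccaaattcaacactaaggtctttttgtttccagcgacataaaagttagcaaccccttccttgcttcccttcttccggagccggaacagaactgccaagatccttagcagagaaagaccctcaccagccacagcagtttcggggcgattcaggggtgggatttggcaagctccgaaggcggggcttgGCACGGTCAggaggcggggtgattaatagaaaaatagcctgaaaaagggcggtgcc
Cat: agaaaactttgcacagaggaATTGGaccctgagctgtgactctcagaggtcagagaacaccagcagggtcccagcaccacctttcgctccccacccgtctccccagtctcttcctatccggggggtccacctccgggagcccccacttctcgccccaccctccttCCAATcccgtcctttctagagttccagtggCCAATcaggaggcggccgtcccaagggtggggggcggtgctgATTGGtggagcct
Sod2: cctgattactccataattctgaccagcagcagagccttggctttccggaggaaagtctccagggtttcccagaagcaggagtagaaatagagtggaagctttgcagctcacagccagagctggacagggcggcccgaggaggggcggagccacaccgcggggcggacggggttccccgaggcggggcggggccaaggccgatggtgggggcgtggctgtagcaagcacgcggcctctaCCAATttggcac
Gpx1: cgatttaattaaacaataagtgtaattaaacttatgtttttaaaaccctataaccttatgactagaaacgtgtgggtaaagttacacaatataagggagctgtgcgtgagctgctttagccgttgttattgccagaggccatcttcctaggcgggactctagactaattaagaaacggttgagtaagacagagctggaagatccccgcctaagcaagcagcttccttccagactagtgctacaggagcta

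In Gclm the core lies 56 to 64 bases before the start, on the minus strand, and CCAAT 84 to 88 bases before it, so the matches do not overlap. In Mgst1 the core lies 48 to 56 bases before the start, on the minus strand. Cat has 4 CCAAT matches, with nearest bases 9, 51, 81 and 226 before the start, and Sod2 has 1, at 8 to 12 bases. A match is a run of letters and no proof of binding, and the lack of a match says only that these letters are not in the window.

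Genes that supply, tune or depend on the same chemistry were described in lists of related genes, whose calls are drawn in the plot of related lists. Differences are again on the log2 scale, and lists share a few genes. Each gene counted once, 27 of 126 were called higher and 29 lower, with a median difference of -0.013, beside 8.49%, 10.7% and -0.0042 over all genes. The lists were not matched to all genes for level. When only genes with 20 or more on the linear scale in 8 or more arrays were tested, 42% of them were called. In the list of glutathione supply and breakdown, 4 of 19 were higher and 4 lower (median -0.0021). Chac1, which degrades glutathione in the cytosol, lay between 4.47 and 4.95 in the fed arrays (median 4.75) and between 6.20 and 7.07 in the fasted arrays (median 6.55), with no overlap. Chac1 rose by 1.88 (SE 0.115, adjusted p = 2.18e-09), more than any of the 47 genes. Its relative Chac2, which also degrades glutathione, fell by 0.63 (SE 0.119, adjusted p = 7.01e-04). Cth, which makes cysteine from cystathionine, fell by 1.12 (SE 0.169, adjusted p = 8.35e-05), also without overlap. Slc3a2, the heavy chain shared by several amino acid exchangers, rose by 0.72 (SE 0.099, adjusted p = 2.86e-05), and Ggt5, a gamma-glutamyl transferase of the cell surface, by 0.71 (SE 0.130, adjusted p = 5.42e-04). Slc7a11, the light chain that imports cystine, differed by 0.028 (SE 0.159, adjusted p = 0.944) at a mean under 4.

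Nrf2 itself, Nfe2l2, differed by 0.21 (SE 0.087, adjusted p = 0.118), and its inhibitor Keap1 by -0.13 (SE 0.075, adjusted p = 0.266), so neither was called. They are named for their role and not by the size of change. In the list of Nrf2 regulators 6 of 15 were higher and 2 lower (median 0.079). Of the 3 small Maf proteins, which pair with Nrf2 or with its rival Bach repressors, Maff rose by 1.43 (SE 0.207, adjusted p = 5.26e-05) and Mafk by 0.88 (SE 0.132, adjusted p = 7.92e-05), while Mafg differed by -0.029 (SE 0.097, adjusted p = 0.901) and was not called. Of these repressors, Bach2 rose by 0.86 (SE 0.101, adjusted p = 5.02e-06) and Bach1 by 0.25 (SE 0.059, adjusted p = 0.00483). Sqstm1, an adaptor that binds Keap1, rose by 0.50 (SE 0.069, adjusted p = 2.88e-05). Of 21 other Nrf2 targets, 3 were higher and 6 lower (median 0.0072), and the 4 with the greatest change all fell. Me1, malic enzyme, fell by 1.05 (SE 0.104, adjusted p = 7.55e-07), and Pgd, of the pentose phosphate pathway, by 0.81 (SE 0.098, adjusted p = 7.43e-06). Osgin1, an oxidative stress induced growth inhibitor, fell by 0.66 (SE 0.085, adjusted p = 1.58e-05), and Akr1b10, an aldo-keto reductase, by 0.66 (SE 0.068, adjusted p = 1.28e-06). The 3 that rose were Ugdh, by 0.53 (SE 0.110, adjusted p = 0.00169), Pir, by 0.45 (SE 0.10004, adjusted p = 0.00307), and Abcc4, by 0.22 (SE 0.069, adjusted p = 0.0343), and the Abcc4 call was lost when each of 9 arrays in turn was left out.

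NADPH, which feeds glutathione and thioredoxin reductase, comes from the enzymes of another list, in which 1 of 15 was higher and 7 lower, with a median of -0.13 (4 lower with array medians subtracted). Idh1, the cytosolic isocitrate dehydrogenase, lay between 9.54 and 10.12 in the fed arrays (median 9.95) and between 8.24 and 8.88 in the fasted arrays (median 8.48), without overlap. Idh1 fell by 1.40 (SE 0.097, adjusted p = 8.49e-09) and its mitochondrial counterpart Idh2 by 0.52 (SE 0.078, adjusted p = 6.61e-05), beside Me1 and Pgd, which this list shares. The single gene called higher, Me3, had an adjusted p of 0.0475 and lost the call without any 1 of 14 arrays. Of glutaredoxins and thioredoxin-linked enzymes 3 of 20 were higher and 4 lower (median 0.085). Sesn2, a stress-induced sestrin, rose by 1.72 (SE 0.150, adjusted p = 1.56e-07) while Sesn3, of the same family, fell by 0.89 (SE 0.110, adjusted p = 9.50e-06). Txnrd3, a reductase for both thioredoxin and glutathione, fell by 0.61 (SE 0.101, adjusted p = 2.15e-04), and Glrx5, a mitochondrial glutaredoxin of iron-sulfur cluster assembly, rose by 0.56 (SE 0.105, adjusted p = 6.83e-04). Of 9 genes of selenoprotein synthesis, on which Gpx1, Gpx3, Gpx4 and the thioredoxin reductases depend, 4 were higher and 2 lower (median 0.066). Sephs2, which makes the selenium donor, rose by 0.95 (SE 0.132, adjusted p = 3.28e-05), Secisbp2, which reads the selenocysteine signal in messenger RNA, by 0.42 (SE 0.067, adjusted p = 1.59e-04), and Trnau1ap, which binds the selenocysteine transfer RNA, by 0.41 (SE 0.072, adjusted p = 3.26e-04). Pstk, the kinase of that transfer RNA, fell by 0.41 (SE 0.096, adjusted p = 0.00458).

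**Figure D5:**
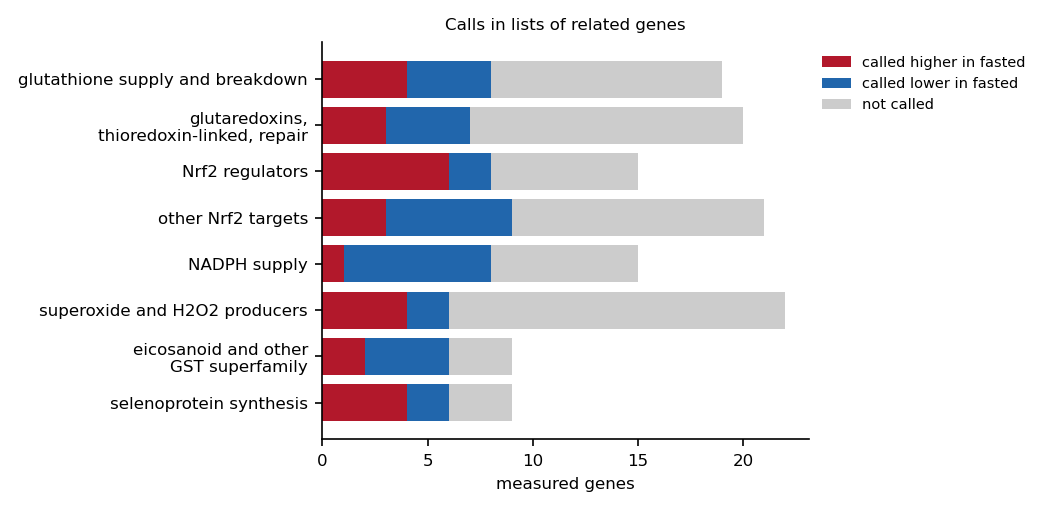
Number of measured genes in each of 8 lists of related genes that were called higher (red), called lower (blue) or not called (grey) in fasted fat. In the NADPH list 7 of 15 were called lower and 1 higher, while in the list of Nrf2 regulators 6 of 15 were called higher and 2 lower.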

How the data were processed

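Values were the deposited log2 intensities of 41345 probe sets on 16 arrays, and the submitters' processing notes name RMA, which corrects background, normalizes between arrays and summarises probes. Version, software and filters: not given in the sources used here. RMA brings arrays close to a shared distribution, which can hide a common shift of all transcripts. Medians of the deposited arrays still differed, from 3.60 to 3.69. Of the probe sets, 23521 had 1 gene symbol in the platform annotation and 1814 several. The probe set with the highest mean stood for each of 22180 genes.

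The main test was limma, version 3.58.1, under R 4.3.3 (lmFit, eBayes defaults, two-sided, Benjamini-Hochberg over all genes, no filter), and errors are moderated standard errors. The fit was tested on simulated data. Correlations, searches of promoter letters and plots used Python 3.11.15 and matplotlib 3.10.9. The number of arrays limits the precision. No scan date or batch was given.

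Genes and lists were chosen with earlier results of these data known. By rule, called genes of the set are named with full statistics, and related lists by up to 4 called genes of greatest change. Outside that rule, Slc7a11, Chac2, Nfe2l2, Keap1, Mafg, Bach1, Ugdh, Pir, Abcc4, Me3 and some cell type markers were named after their values were seen. Alternatives changed the dim-gene filter, normalization, variance model, array weights, replicate block, arrays left out, probe set, test and threshold; marker means as covariates were added after seeing the data.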

Additional observations from a re-analysis of the deposited data

Results flagged for a closer look

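Of 94 groups of 8 arrays tested over the 47 genes, 4 had an extreme array that stood apart from the rest by more than Dixon's limit, about the 1 in 20 that chance gives. Fed replicate 2 accounts for 3 of them. In Gstm6 it was the highest fed array at 4.54 (next 3.72), in Gstm7 the highest at 7.48 (next 5.39), and in Prdx3 the lowest at 8.72 (next 8.89). In Mgst1, fasted replicate 8 was the highest fasted array at 9.40 (next 9.12).

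Of 20 groups tested over the marker means of 10 cell types, 5 stood apart. The ciliated epithelium mean was 5.98 in fed replicate 2 and 5.31 in fasted replicate 7, the arrays in which Gstm7 was also highest. The epididymal epithelium mean was 2.94 in fed replicate 2, near the low end of the arrays. Of its 16 markers Adam7 had by far the widest fed range, from 2.29 to 6.16 (median 2.59). The fibroblast and progenitor mean was 9.63 in fasted replicate 1, and the neutrophil mean was 3.11 in fed replicate 3.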

How the results depend on the processing

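Without any 1 array, 16 of the 21 called genes kept their call; the other 5 were Gclc, Gclm, Nqo1, Gpx4 and Txn2. Over those fits the glutathione and peroxide genes called higher numbered 7 to 11 and lower 9 to 12, all genes 1673 to 1910 and 2112 to 2445, and genes of the related lists 23 to 29 and 28 to 31. Subtracting array medians left 7 of the 47 called lower. At an adjusted p under 0.01, 7 of the 47 were higher and 7 lower (29.8%, beside 12.5% of all genes). Of all genes 1214 were higher and 1552 lower at that threshold. No called value changed sign in any fit. An exact rank sum test called 17 of the 47 (7 higher, 10 lower), all among the 21, and lost Gclc, Gclm, Nqo1 and Txn2. The replicate block called 17 of the 47 (7 higher, 10 lower), all among the 21, and 3829 genes in all; the numbers did not pair the arrays, since same-number correlations ran from -0.216 to 0.218 and 3 of 16 arrays correlated best with their own number. A filter on dim genes (20 or more on the linear scale in 8 or more arrays) kept 38 of the 47 and called 24 (63.2%), 20 of them shared, beside 4553 of 10832 genes (42%). With marker means as covariates, chosen after seeing the data, 21 (hepatocyte), 22 (ciliated), 18 (macrophage) and 16 (fibroblast) were called. Dim genes, 9 of the 47 with a mean under 4, may have compressed differences, which was not tested, and 1 of them was called.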

Other observations

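Prostaglandin and leukotriene enzymes related to the glutathione transferases, listed with other proteins of the transferase fold, were called in 6 of 9 cases, 2 higher and 4 lower (66.7%, beside 19.2% of all genes, with a median log2 difference of -0.11, against -0.0042). Ptges, the microsomal prostaglandin E synthase, lay between 6.54 and 7.58 in the fed arrays (median 6.80) and between 5.28 and 5.81 in the fasted arrays (median 5.61). Its groups did not overlap, and it fell by 1.25 (SE 0.130, adjusted p = 1.29e-06) on the log2 scale. Ptges2, a second prostaglandin E synthase, fell by 0.53 (SE 0.107, adjusted p = 0.00137). Hpgds, the sigma-class transferase that makes prostaglandin D, lay between 4.82 and 5.29 in the fed arrays (median 5.15) and between 5.33 and 5.84 in the fasted arrays (median 5.70). It was higher in every fasted array and rose by 0.56 (SE 0.089, adjusted p = 1.46e-04). Clic4, a chloride channel protein with the transferase fold, rose by 0.46 (SE 0.081, adjusted p = 3.66e-04).

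Enzymes that release superoxide or hydrogen peroxide were called in 6 of 22 cases, 4 higher and 2 lower (27.3%, beside 19.2% of all genes, with a median of -0.0095). With the filter on dim genes 42% of genes were called, and neither this list nor the one before was matched for level. The amine oxidases Maob and Aoc3, which give off hydrogen peroxide, fell by 0.89 (SE 0.117, adjusted p = 1.78e-05) and 0.88 (SE 0.114, adjusted p = 1.61e-05), each with all fasted arrays below all fed arrays. Nox4, an NADPH oxidase that makes hydrogen peroxide, rose by 0.58 (SE 0.114, adjusted p = 0.00115). Qsox1, which forms disulfides and hydrogen peroxide, rose by 0.38 (SE 0.064, adjusted p = 2.15e-04).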
